A study of Mus musculus with 32 samples.

Results

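The axon guidance ligands and receptors are 49 genes chosen by symbol from the Eph, ephrin, Robo, Slit, netrin, netrin receptor, plexin, neuropilin and class 3 semaphorin families, out of 20612 genes listed in at least 1 library. Of these, 29 encode receptors and 20 encode ligands. The rule used symbols only, and it was set with earlier results of these data known. All 49 were listed in at least 1 library, 38 in all 32 libraries, and 48 passed the filter on low counts (1 CPM, the count scaled to library size, in at least 4 libraries). Epha6 did not pass and reached at most 0.33 FPKM (fragments scaled to transcript length and library size), in the DMSO library of the neural progenitor stage.

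Gene expression was measured by RNA sequencing of J1 cells, a mouse embryonic stem cell (ESC) line of strain 129S4/SvJae, in 32 libraries. Embryoid bodies (EB, floating aggregates in which several lineages form) were sampled at days 4, 6, 9, 12 and 20 of global differentiation, beside the undifferentiated ESC of day 0. In the neural branch, EB that had received retinoic acid (RA) for 4 days were sampled at day 8 (RA EB), and cells named neural progenitor cells (NPC), grown as a monolayer, at day 10. Each of the 8 stages had 1 library with each of 4 treatments: the solvent DMSO or 100 nM of BPA, BPF or BPS (bisphenols A, F and S). The cells of every group came from the same line, and the day 0 and day 4 libraries stand before both branches. No stage and treatment combination was repeated. Stages were therefore compared over their 4 libraries, treatments over the stages, and p-values measure only the spread between these samples. In whole cultures, fewer cells of a type and less RNA per cell cannot be told apart.

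Axon guidance genes encode the cues that steer growing axons and the receptors by which the growth cone reads them. Ephrins are membrane-bound ligands of the Eph receptor tyrosine kinases and act at cell contacts. Slits are secreted ligands that repel axons through Robo receptors. Netrins attract axons through DCC and repel them through UNC5 receptors. Most class 3 semaphorins signal through a neuropilin and a class A plexin that form a receptor complex. Many of the same genes also act outside axons, for example in tissue boundaries, blood vessels and neural crest migration.

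Promoter windows of 250 bases before to 50 bases after the start were taken from RefSeq (build GRCm38.p6) and matched 41 of the 49 genes. The 250 bases before the start are shown for 3 genes whose levels moved in different ways: Epha3, from which almost no counts came before EB day 9 and which was high in both neural stages; Sema3c, which rose at EB day 4; and Nrp2, which changed with both stage and treatment. All are written 5′ to 3′ along the gene, with capitals marking a match to a searched motif.
Epha3, chr16:63864176-63864425, minus strand: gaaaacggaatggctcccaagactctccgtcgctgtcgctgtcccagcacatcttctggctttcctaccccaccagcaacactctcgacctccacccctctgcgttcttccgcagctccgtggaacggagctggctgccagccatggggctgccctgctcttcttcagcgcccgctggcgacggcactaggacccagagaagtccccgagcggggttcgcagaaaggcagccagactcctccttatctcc
Sema3c, chr5:17574566-17574815, plus strand: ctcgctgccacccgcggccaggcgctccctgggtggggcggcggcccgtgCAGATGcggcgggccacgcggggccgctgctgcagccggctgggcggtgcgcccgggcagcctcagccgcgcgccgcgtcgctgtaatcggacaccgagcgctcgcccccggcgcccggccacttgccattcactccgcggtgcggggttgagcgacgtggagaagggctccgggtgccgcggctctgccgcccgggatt
Nrp2, chr1:62703067-62703316, plus strand: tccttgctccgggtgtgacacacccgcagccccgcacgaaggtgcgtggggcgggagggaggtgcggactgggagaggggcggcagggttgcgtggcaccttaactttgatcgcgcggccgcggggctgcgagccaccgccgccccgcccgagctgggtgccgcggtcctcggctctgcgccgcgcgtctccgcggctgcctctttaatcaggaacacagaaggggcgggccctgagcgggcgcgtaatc
GC content of the 3 stretches was 62.8% for Epha3, 78.4% for Sema3c and 72.4% for Nrp2. Over the whole windows, median GC content was 65.3% in the 41 matched genes (range 41.3% to 84.3%) and 52.7% in all 27025 genes of the table. The letters CAGATG, an E-box form bound by proneural factors, stood in Sema3c as capitalised above and in the windows of 4 of 41 members (9.8%; 19.2% of all genes). The E-box CAGCTG was in 5 members (12.2%; 18.3% of all genes) and CAGCACC, which is part of the site of the neuronal repressor REST, was in 5 members (12.2%; 8.14%). No member window held a direct repeat of AGGTCA with a spacer of 5 or 2 bases, the arrangement read by retinoic acid receptors, and such repeats occurred in 0.0111% and 0.0074% of all windows. Both strands were searched, and the motifs do not overlap one another in these stretches.

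The libraries held between 9574833 and 11070149 expected counts (the program's estimate of the reads of each gene) and between 16326 and 17839 listed genes. The labelled cell types were checked against marker genes. The summed FPKM of 16 neuron markers was between 4497 and 5117 in the NPC libraries, against 220.5 to 233.8 in the ESC libraries. The 12 neural progenitor markers summed to between 576.2 and 707.1 in the same NPC libraries, so the cultures named NPC expressed markers of both classes. The progenitor sum was between 279.4 and 300.4 in the ESC libraries and between 839.6 and 1319 at EB day 12. The 10 pluripotent cell markers summed to between 4619 and 4967 in the ESC libraries and between 14.99 and 22.18 in the NPC libraries. The DMSO libraries of EB days 12 and 20 stood apart from the 3 bisphenol libraries of their stage: 13 mesenchyme markers summed to 47.4 in DMSO and 521.9 to 568.0 with bisphenols at day 12, and to 156.1 against 1362 to 1527 at day 20. In the NPC libraries the order was opposite, with 472.0 in DMSO and 193.4 to 226.4 with bisphenols.

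Levels over differentiation. Expression of the guidance genes was sparse in ESC and broad in differentiated cultures. The number of members with a stage mean of 1 FPKM or more was 19 in ESC, 26 at EB day 4, 35 at day 6, 44 at day 9, 47 at day 12 and 46 at day 20. It was 40 in RA EB and 46 in NPC. In ESC the 5 members above 10 FPKM were all receptors, namely Ephb4, Plxna1, Epha2, Epha4 and Ephb3, and no ligand reached that level. By mean over the 4 libraries of a stage, receptors and ligands differed in where they were highest. Of the 18 members highest in NPC, 15 were receptors, while 7 of the 8 members highest at EB day 12 were ligands. A further 10 members were highest at EB day 20, 5 at EB day 6, 4 at EB day 9, 2 at EB day 4 (Epha1 and Unc5b), 1 in ESC (Epha2) and 1 in RA EB (Unc5a). The lowest stage was ESC for 28 members and EB day 4 for 15. These orders are descriptions of stage means, and neighbouring stages often lie within each other's spread. The means also join DMSO and bisphenol libraries. In DMSO alone, Slit2 and Sema3d were highest in NPC (14.74 and 2.82 FPKM, against 9.36 and 1.05 at EB day 12). Ntn3 was then highest at EB day 9 (4.58 against 4.55). The ligands Efna2, Efnb1, Slit1 and Ntn1 were highest at EB day 12 in DMSO alone as well. The receptor ranks moved too. In DMSO alone, Ephb1 and Unc5d were highest at EB day 20 (25.92 and 2.75 FPKM, against 17.0 and 2.28 in NPC). Ephb2 was then highest at EB day 12 (37.0 against 36.02 in NPC), and Nrp1 in NPC (20.11 against 10.74 at EB day 20).

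**Figure D1:**
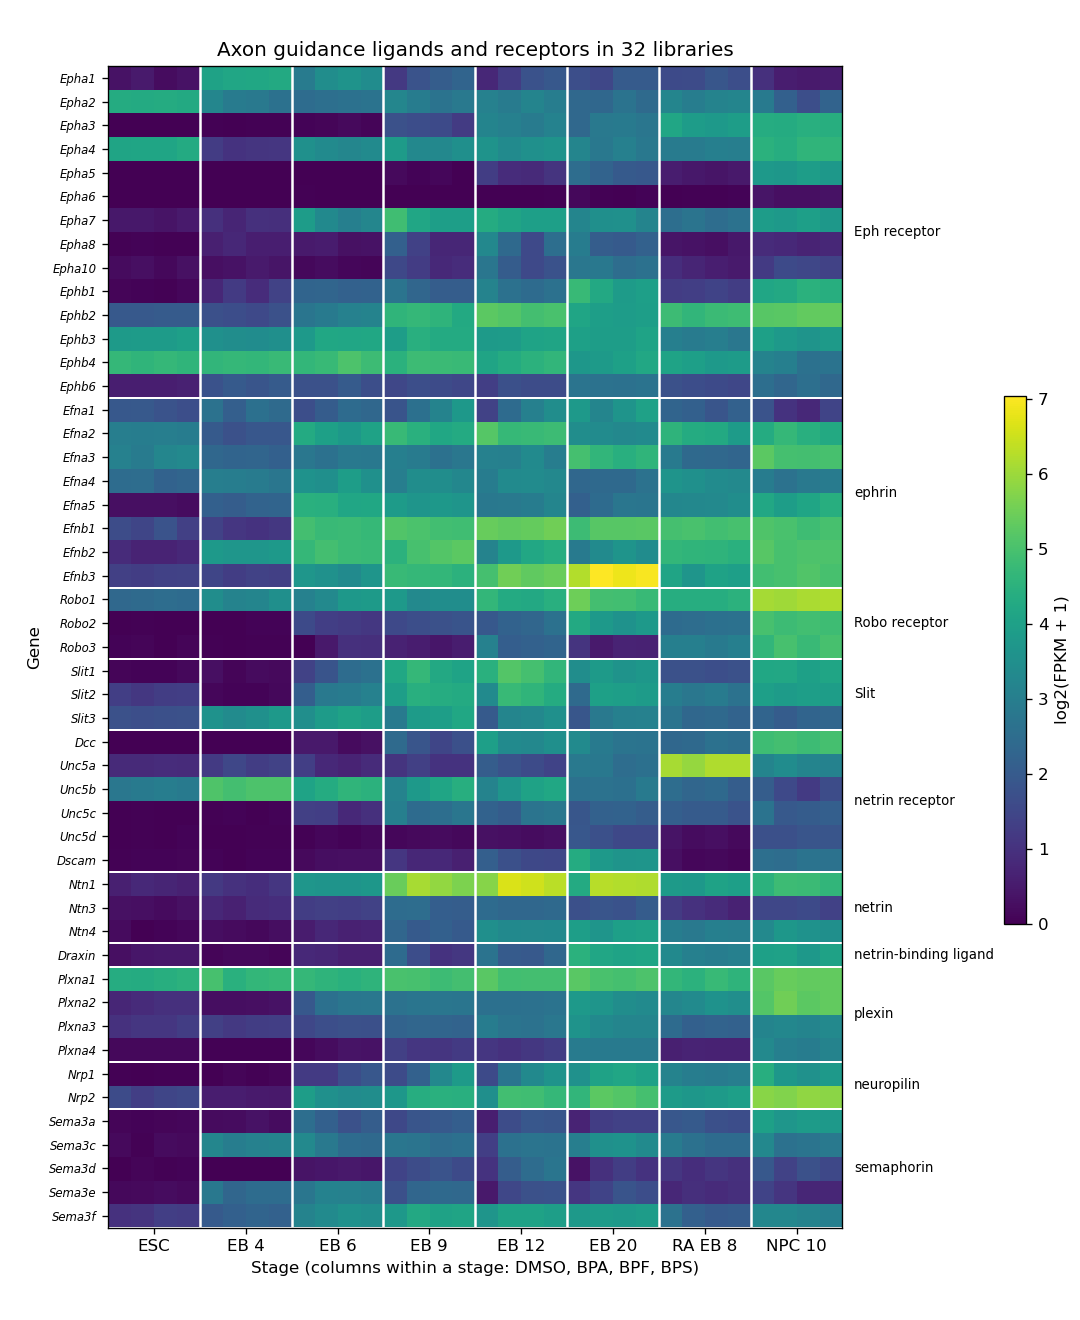
Level of the 49 genes in the 32 libraries, as log2(FPKM + 1) by colour, with genes in rows grouped by family and libraries in columns ordered by stage and, within a stage, DMSO, BPA, BPF and BPS. Most rows are dark in the ESC columns, where 19 members reached a mean of 1 FPKM, and light in the NPC columns, where 46 did.

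Changes between stages. A member was called between stages when its adjusted p (edgeR's quasi-likelihood test with Benjamini-Hochberg adjustment over 15632 genes) was under 0.05 and its fitted log2 change at least 1 in size. From ESC to EB day 4, 16 of 48 members rose and 9 fell (14.4% and 13.6% of all genes tested). From day 4 to day 6, 28 rose and 1 fell, where 10.8% and 8.75% of all genes did. From day 6 to day 9, 18 rose and 1 fell (10.7% and 3.97%), and from day 9 to day 12, 8 rose and 2 fell (7.56% and 2.43%). From day 12 to day 20, 12 rose and 8 fell (17.6% and 8.78%). The share of members that rose exceeded the share of all genes at each of the 5 steps, most at day 6, and the share that fell was below it at days 6 and 9. With limma on log2(FPKM + 1), which shrinks changes of low genes, 8 members rose and 4 fell at EB day 4, and 11 rose at day 9. Of the 14455 genes in that fit, 1119 rose and 1156 fell at EB day 4, and 686 rose at day 9. The median log2 change of the members was 0.78, 1.69, 0.58, 0.18 and -0.15 over these 5 steps, and that of all genes lay between -0.01 and 0.03. With members that had a group at 0 counts set to their bound, the median of the step to EB day 4 was 0.72, and that of day 6 stayed at 1.69.

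In the neural branch, 29 members rose and 5 fell from EB day 4 to RA EB (19.0% and 15.7% of all genes), with a median log2 change of 2.44. From RA EB to NPC, 28 rose and 4 fell (18.1% and 17.4%), with a median of 1.12. Receptors made up 19 of these 28 risers (19 of 28 receptors tested) and ligands 9 (9 of 20). With limma on log2(FPKM + 1), 18 members rose at this step, as did 1729 of 14455 genes. The neuron markers summed to between 656.4 and 711.1 in RA EB and to at least 4497 in NPC, and the part of that difference in the members' rise was not tested.

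**Figure D2:**
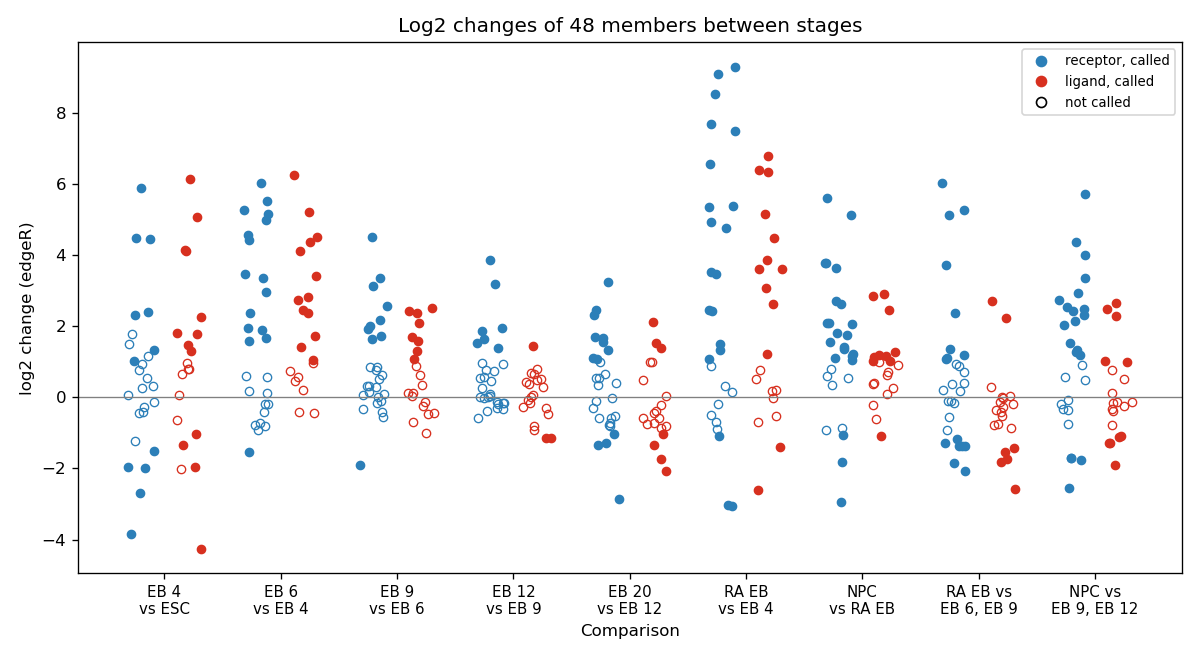
Fitted log2 change of each member in 9 comparisons between stages, with receptors in blue, ligands in red, called members filled and others open. Values with a group at 0 counts are not drawn (5 in all). Points above 0 outnumber those below at EB day 6, where 28 members rose and 1 fell, and in both neural steps. The highest points of RA EB against EB day 4 are genes with at most 3 counts over the EB day 4 libraries, whose fitted values depend on the prior count.

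Eph receptors. Epha4 and Epha2 were the leading EphA receptors of ESC, and both fell by EB day 4. The FPKM of Epha4 was 16.4, 16.6, 16.5 and 18.6 in the ESC libraries with DMSO, BPA, BPF and BPS (the order used throughout) and 1.36, 1.06, 1.11 and 1.15 at EB day 4. The 4 libraries of each stage did not overlap, and the log2 change was -3.85 ± 0.12 (SE, adjusted p = 5.6e-20). Epha2, a receptor expressed in many epithelia, went from a mean of 18.8 ± 0.437 FPKM (SD, n = 4) to 6.56 ± 1.30, a log2 change of -1.51. Epha1 moved the other way. Its FPKM was 0.28, 0.43, 0.18 and 0.28 in ESC and 15.5, 17.0, 17.3 and 18.3 at EB day 4, so that all EB day 4 libraries lay far above all ESC libraries (log2 change 5.89 ± 0.31, adjusted p = 2.2e-15). Epha1 then fell by EB day 9 (log2 change -1.90 against day 6), in RA EB (-3.04 against EB day 4) and in NPC (-1.83 against RA EB).

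Other Eph receptors appeared late. Epha3, an EphA receptor of neurons and mesenchyme, gave 3 counts over the 4 EB day 4 libraries and 2480 over the RA EB libraries, a ratio of 788 (95% interval 269 to 3830, counting error only). Its FPKM in RA EB was 16.8, 13.7, 12.9 and 14.0, and in NPC 19.6, 19.2, 20.5 and 20.2. In global EB it rose by day 9 (log2 change 4.51 ± 0.27 against day 6) and again by day 12 (1.88 ± 0.14) to a mean of 7.45 FPKM. Epha5, a neuronal EphA receptor, had no count at EB day 4 and 134 in RA EB, at least 42.6-fold higher with a floor of 3 counts over the group. Its FPKM rose from 0.48, 0.37, 0.32 and 0.40 in RA EB to 12.6, 12.2, 14.2 and 12.4 in NPC, with no overlap. Ephb1, a receptor of retinal and cortical axons, stood at 1.36, 1.47, 1.68 and 1.43 FPKM in RA EB and 17.0, 18.1, 21.3 and 20.2 in NPC (log2 change 3.77 ± 0.21, adjusted p = 3.8e-15). At EB day 20 Ephb1 had the highest mean of the Eph receptors, 18.0 ± 5.58 FPKM, though Ephb4 exceeded it with BPF (15.1 against 13.5) and BPS (17.7 against 14.8). In NPC the highest was Ephb2, with 37.8 ± 1.91. Ephb4, known from veins, fell from 14.3 ± 1.31 FPKM in RA EB to 6.43 ± 1.34 in NPC.

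Ephrins. B-class ephrins span the membrane and can signal back into the cell that carries them. Efnb3 rose at EB days 6, 9 and 20 and reached 73.6, 130.0, 115.6 and 123.4 FPKM at day 20, while NPC libraries held 29.1, 30.4, 33.6 and 30.8. Its mean of 110.6 ± 25.4 FPKM at EB day 20 was the highest of any ephrin there. Efnb2, the ligand of Ephb4 in arteries, was the highest ephrin in NPC (33.1 ± 2.07), close to Efna3 (31.97 ± 3.85), and their libraries overlapped. Efnb2 had risen by EB day 4 (log2 change 4.15 ± 0.22, from 0.710 to 12.5 FPKM) and fell from EB day 9 to day 12 (-1.15 ± 0.15). Among the A-class ephrins, which are tethered by a lipid anchor, Efna2 fell by EB day 4 (-1.34 ± 0.14), and from 35.4, 25.4, 26.3 and 27.5 FPKM at EB day 12 to 9.86, 9.44, 8.65 and 9.23 at day 20 (-1.72 ± 0.11, adjusted p = 2.2e-13). Efna1 fell from RA EB to NPC (log2 change -1.09 ± 0.42, adjusted p = 0.022), a call lost without the BPA libraries (-0.92, adjusted p = 0.14) or the BPF libraries (-0.99, 0.087).

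Slits and Robos. Slit2 was measurable in ESC, fell at EB day 4 and then rose. Its FPKM was 1.49, 1.22, 1.41 and 1.48 in ESC, 0.09, 0.04, 0.04 and 0.12 at EB day 4 and 3.33, 6.24, 6.59 and 7.57 at day 6. The 3 stages did not overlap, with log2 changes of -4.27 ± 0.48 and 6.27 ± 0.41. Robo1 was the highest Robo receptor in both late stages, at 31.96 ± 8.20 FPKM at EB day 20 and 68.0 ± 3.39 in NPC. Robo2 rose by EB day 6 (log2 change 6.04 ± 0.42) and had 18.3, 12.9, 11.1 and 12.7 FPKM at EB day 20 and 30.4, 27.4, 28.9 and 27.6 in NPC. Robo3, the receptor that lets commissural axons cross the midline, had a single peak in global EB. Its FPKM was 0.58, 0.48, 0.35 and 0.49 at day 9, 7.45, 3.29, 3.52 and 3.83 at day 12 and 1.07, 0.41, 0.62 and 0.58 at day 20. Day 12 lay above both neighbours in every library (log2 changes 3.20 ± 0.37 and -2.85 ± 0.36). In NPC, Robo3 reached 23.6, 30.4, 26.4 and 30.9 FPKM. Slit1 and Slit2 were the leading Slits at EB day 20, at 11.7 ± 1.41 and 11.82 ± 5.002 FPKM, within each other's spread, and Slit1 led in NPC at 16.6 ± 1.16. Slit1 fell from EB day 12 to day 20 (-1.33 ± 0.18), and Slit3 fell from EB day 4 to RA EB (-1.39 ± 0.24).

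Netrins and their receptors. Unc5a, a receptor through which netrin repels axons (chromosome 13, 54945151 to 55006018 in GRCm38), was high at a single stage. Its FPKM was 67.8, 59.1, 72.9 and 71.9 in RA EB, at most 6.21 in any library of ESC or global EB, and 8.00, 9.80, 8.09 and 7.69 in NPC. All RA EB libraries lay above every other library of the study. Against NPC the log2 change of NPC was -2.95 ± 0.14 (adjusted p = 2.2e-16), and against EB days 6 and 9 RA EB was higher by 6.02 ± 0.13 (adjusted p = 4.4e-23). The related Unc5b, known also from blood vessels, had the opposite order: 33.3, 29.3, 32.8 and 32.4 FPKM at EB day 4 and 4.76, 4.03, 4.27 and 3.21 in RA EB (-3.07 ± 0.22). Unc5d rose late, from 0.215 ± 0.0289 FPKM at EB day 12 to 2.20 ± 0.408 at day 20 and from 0.208 ± 0.0741 in RA EB to 2.45 ± 0.203 in NPC (3.25 ± 0.26 and 3.63 ± 0.26 on the log2 scale).

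Dcc, the receptor through which netrin attracts axons, gave 3 counts over the EB day 4 libraries and 2082 in RA EB, a ratio of 662 (95% interval 226 to 3210). Its FPKM was 14.8, 9.28, 8.75 and 10.4 at EB day 12, 9.26, 6.38, 5.52 and 5.42 at EB day 20 and 28.0, 29.5, 27.3 and 29.9 in NPC. Every NPC library lay above every global EB library. Dscam, a cell adhesion receptor that also binds netrin, differed between the late stages in the other direction. It had 19.2, 12.8, 11.5 and 11.8 FPKM at EB day 20 and 4.92, 4.67, 5.36 and 5.34 in NPC. It rose both into EB day 20 (log2 change 2.46 ± 0.16) and from RA EB to NPC (5.62 ± 0.23). Ntn1, the founding attractive netrin (chromosome 11, 68209364 to 68386826), was the leading ligand of EB day 12, with 52.7, 99.2, 91.0 and 78.02 FPKM, against 22.0, 27.4, 26.8 and 23.8 in NPC. Draxin, a secreted repellent that binds Dcc and netrin, rose into EB day 20 (2.11 ± 0.20), where it had 17.7 ± 2.50 FPKM, and was at 14.6 ± 1.44 in NPC.

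Semaphorins, neuropilins and plexins. Sema3c, which guides neural crest and outflow tract cells as well as axons, rose by EB day 4 from 0.13, 0.02, 0.15 and 0.13 FPKM in ESC to 8.35, 6.97, 7.59 and 7.77, with no overlap (log2 change 6.15 ± 0.43, adjusted p = 9.1e-13). Sema3e rose at the same step (5.09 ± 0.41) and was below 1 FPKM in all 4 RA EB libraries (-2.62 ± 0.31 against EB day 4). Sema3a, the classical growth cone collapsing semaphorin, was highest in NPC, at 14.9, 11.9, 13.6 and 12.7 FPKM. No other of the 5 class 3 semaphorins among the members reached its mean there. Sema3f led these 5 at EB day 20, with 13.3 ± 0.550 FPKM. The co-receptor Nrp2 fell by EB day 4 (-1.98 ± 0.32) and rose by day 6 (4.56 ± 0.28), to reach 24.0, 37.4, 34.5 and 30.1 FPKM at EB day 20 and 53.6, 51.0, 57.0 and 54.9 in NPC. Nrp1, the co-receptor for Sema3a and for vascular growth factor, rose by EB day 6 (5.54 ± 0.81). Plxna1 lay between 19.1 and 40.96 FPKM in all 32 libraries. Plxna2 reached the same level only in NPC (38.9 ± 4.02 against 39.2 ± 1.70 FPKM for Plxna1) and was at 11.01 ± 1.64 at EB day 20. Plxna4 rose into EB day 20 (2.31 ± 0.13) and from RA EB to NPC (3.78 ± 0.14).

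**Figure D3:**
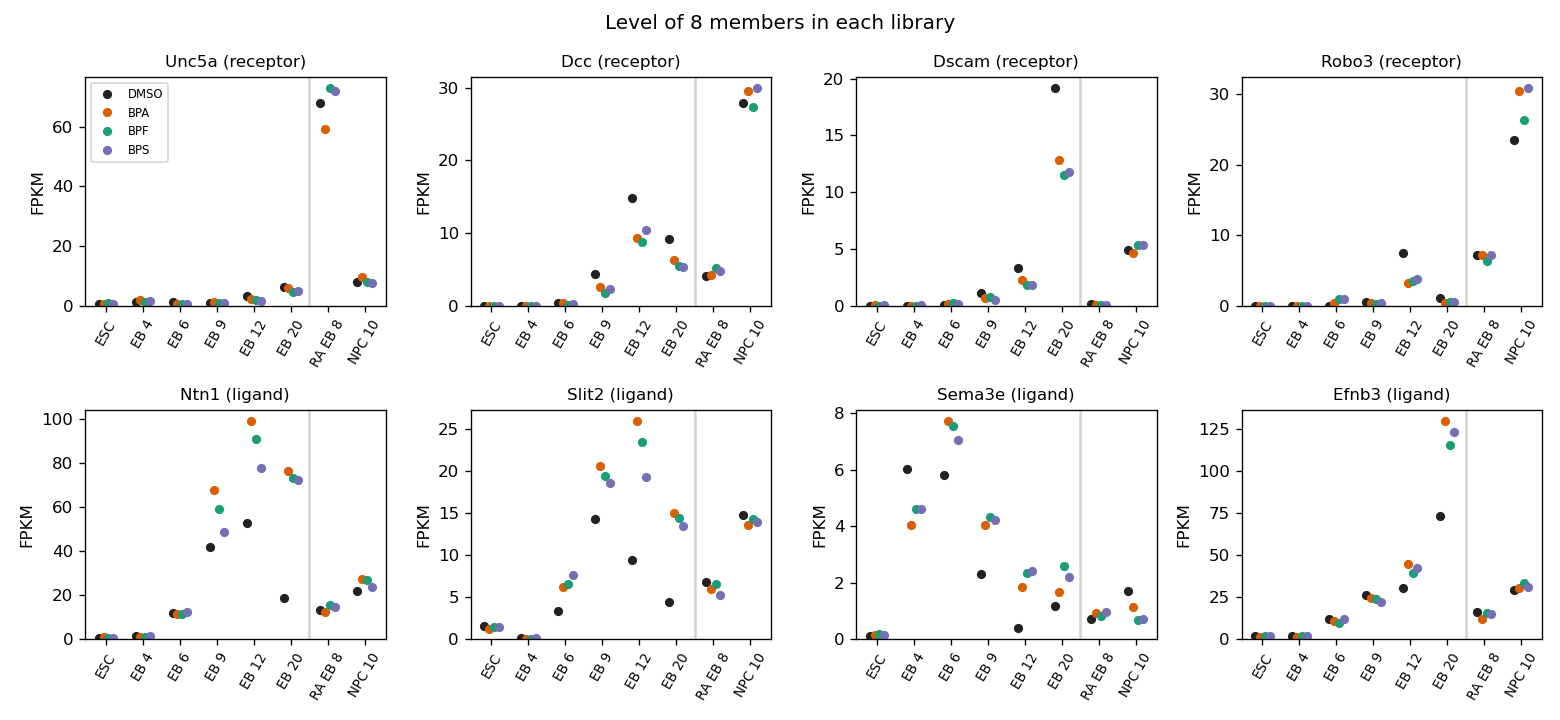
FPKM of 8 members in each library (a point per library, coloured by treatment, with global stages left and neural stages right of the grey line, and axes starting at 0). Unc5a is high in the 4 RA EB libraries alone, Dcc and Robo3 are highest in NPC, and the DMSO library of EB day 20 lies below the bisphenol libraries for Ntn1 and Slit2 and above them for Dscam.

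Neural and global cultures of similar age. RA EB (day 8) were compared with the mean of EB days 6 and 9, and NPC (day 10) with the mean of EB days 9 and 12. In RA EB, 11 of 48 members were called higher and 12 lower (8.62% and 10.3% of all genes). Receptors split into 9 higher and 7 lower and ligands into 2 higher and 5 lower. Beside Unc5a, members in excess in RA EB included Epha3 (log2 difference 5.12 ± 0.14), Robo3 (3.72 ± 0.28), Draxin (2.72 ± 0.18) and Dcc (2.37 ± 0.17), although the DMSO library of EB day 9 (4.44 FPKM of Dcc) lay within the RA EB range. Among the members lower in RA EB were Sema3e (-2.59 ± 0.29), Unc5b (-2.06 ± 0.20), Slit1 (-1.82 ± 0.19), Sema3f (-1.74 ± 0.12) and Slit3 (-1.53 ± 0.22). RA EB libraries held 2.35, 2.33, 2.23 and 2.36 FPKM of Slit1 where EB day 9 libraries held 17.1, 24.9, 17.8 and 15.9, although the EB day 6 libraries overlapped the RA EB range. Neuron markers summed to between 656.4 and 711.1 in RA EB and 85.44 to 436.3 at EB days 6 and 9, and mesenchyme markers to between 21.12 and 28.59 against 58.78 to 309.8. Their part in the result was not tested.

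In NPC, 21 members were higher and 9 lower (16.4% and 22.4% of all genes), and the split was uneven between roles: 16 receptors higher and 4 lower, 5 ligands higher and 5 lower. Members in excess in NPC included Epha5 (5.71 ± 0.17), Robo3 (4.36 ± 0.25), Unc5d (4.02 ± 0.21), Robo2 (3.36 ± 0.13) and Plxna2 (2.95 ± 0.11). Members lower in NPC included Unc5b (-2.55 ± 0.22), Efna1 (-1.91 ± 0.37), Epha1 (-1.75 ± 0.28), Ephb4 (-1.71 ± 0.11) and Epha8 (-1.70 ± 0.26), of which Efna1, Epha1 and Epha8 had overlapping libraries. Age and branch differ together in both comparisons, since no day was sampled in both branches after day 4. Neuron markers summed to between 240.7 and 1225 at EB days 9 and 12, below the NPC libraries, and mesenchyme markers to between 47.4 and 568.0 at these EB days against 193.4 to 472.0 in NPC. Their part in the result was not tested. With the DMSO libraries left out, 19 members were called higher and 9 lower in NPC, beside 2539 and 3517 of 15171 genes.

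Bisphenols over all stages. The mean of the 3 bisphenols was compared with DMSO over the 8 stages, and calls here and below needed an adjusted p under 0.05 with no minimum change. No member was called higher and 5 were lower (5 of 48; 2.73% of all genes in either direction), while 22 members had an unadjusted p under 0.05. Epha8, an Eph receptor of the midbrain (chromosome 4, 136929419 to 136956859), had the largest decrease. Its FPKM was 3.42 with DMSO and 1.59, 0.68 and 0.69 with BPA, BPF and BPS at EB day 9, then 8.74 against 4.33, 1.91 and 4.85 at day 12, and 6.70 against 3.22, 2.95 and 3.52 at day 20. At each of these 3 stages the DMSO library was the highest, and in NPC the libraries lay closer, at 0.83 against 0.75, 0.61 and 0.73. Over all stages the log2 difference was -0.93 ± 0.17 (adjusted p = 0.0029). The other 4 called members were Dscam (-0.51 ± 0.12, adjusted p = 0.018), Efna2 (-0.27 ± 0.06, 0.024), Draxin (-0.51 ± 0.13, 0.030) and Dcc (-0.45 ± 0.12, 0.033). DESeq2 called 4 of the 5, without Draxin (adjusted p = 0.053), and limma called 0 of them, with adjusted p between 0.084 and 0.28. Efna2 was below DMSO at 7, 6 and 8 of 8 stages with BPA, BPF and BPS, and Dcc at 5 of 8 stages with each compound.

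These calls rest on a few stages. With EB days 12 and 20 left out, a fit chosen after the data were seen, none of the 5 members was called (Epha8 -0.72, adjusted p = 0.24) and another, Sema3c, was called lower (-0.47 ± 0.09, adjusted p = 0.031). With a single stage left out, 0 members were called without EB day 12, 1 without EB day 9 or day 20, 2 without EB day 6, 8 without ESC, 9 without RA EB and 16 without NPC. The calls over all genes moved too, with 12 higher and 25 lower of 15549 without EB day 12. They were 190 and 321 of 15260 without ESC, 228 and 326 of 15574 without RA EB, and 500 and 603 of 15551 without NPC. In the 6 stages outside the neural branch, also chosen after the data were seen, 9 members were higher and 11 lower (10.8% of 15458 genes in either direction). Ligands were then 6 higher and 2 lower and receptors 3 higher and 9 lower. Dcc had -0.80 ± 0.09 (adjusted p = 1.8e-05), Slit2 0.86 ± 0.16, Sema3d 1.13 ± 0.23 and Nrp1 1.21 ± 0.23 in that fit.

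Single bisphenols. BPA, BPF and BPS share 2 phenol rings and differ in the bridge between them: an isopropylidene carbon in BPA, a methylene in BPF and a sulfonyl in BPS. Against DMSO over the 8 stages, BPA called no member (0.166% of all genes in either direction; 15 members at an unadjusted p under 0.05; 0 by DESeq2 and limma). BPF called Epha8 (-1.31 ± 0.22, adjusted p = 0.0028) and Draxin (-0.66 ± 0.16, adjusted p = 0.046), with 0.992% of all genes called. BPS called Epha8 (-0.84 ± 0.21, adjusted p = 0.049), with 1.15% of all genes called. None of these calls was made with limma (adjusted p of 0.16 or more). Draxin with BPF was not called with DESeq2 (adjusted p = 0.085) or a filter of 5 CPM (0.064), nor was Epha8 with BPS (0.075 and 0.062), for which DESeq2 called Efna2 instead (-0.30, adjusted p = 0.047). The 3 comparisons share their DMSO libraries. Epha8 with BPA had -0.64 ± 0.21 (adjusted p = 0.26). Without the NPC libraries the counts were 9 members for BPF and 8 for BPS, without RA EB 3 for each, and without EB day 12 they were 0 for each. Of 15551 genes tested without NPC, 277 were higher and 290 lower with BPF, and 413 and 336 with BPS. BPS also called none without ESC, EB day 6, day 9 or day 20, and BPF called 1 without EB day 4, 6, 9 or 20.

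At the same dose and times, the 3 pairs of compounds were compared directly, with 48 members each and p-values adjusted over the 3 pairs as well as over genes. No member passed in any pair (0.0% of all genes called for BPA against BPF, 0.0064% for BPA against BPS and 0.0% for BPF against BPS), and DESeq2 and limma called 0 members too. The unadjusted p was under 0.05 for 1, 4 and 0 members. BPA and BPF differed most in Epha8, higher with BPA by 0.67 on the log2 scale (95% interval 0.18 to 1.15). BPA and BPS differed most in Nrp1 (-0.70, interval -1.28 to -0.12) and Efna1 (-0.64, interval -1.18 to -0.10), both lower with BPA. Between BPF and BPS the largest difference was that of Epha8 (-0.47, interval -0.96 to 0.02). The 95% interval lay within 1 log2 unit of 0 on both sides for 46, 46 and 48 of 48 members, and within 0.5 for 37, 37 and 41. Differences above 0.5 log2 units thus lay outside the interval for most members, and smaller ones were not resolved.

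Bisphenols at single stages. At each stage the 3 bisphenol libraries were compared with the single DMSO library, which was assumed to vary like the other groups. The count of called members depended on the stage. In ESC no member was called (0.0% of all genes; 1 at an unadjusted p under 0.05; 0 by DESeq2 and limma). At EB day 4 none was called either (0.563% of all genes; 5 at an unadjusted p under 0.05), although Plxna1, at 30.9 FPKM with DMSO and 21.0, 24.4 and 25.2 with bisphenols, passed with DESeq2 (adjusted p = 0.0042). At EB day 6, 7 members were higher and 4 lower (2.55%), at day 9, 11 and 9 (7.49%), at day 12, 16 and 12 (18.9%) and at day 20, 12 and 13 (19.6%). In RA EB only Sema3f was called, lower with bisphenols (2.34% of all genes), and in NPC 3 members were lower and none higher (2.25%). The share of members called at EB days 6, 9, 12 and 20 was thus more than that of all genes. In RA EB it was close to that of all genes, and in NPC it was 3 of 48 against 2.25%. Leaving out 1 bisphenol library moved the count at EB day 6 to 4 (without BPF), 6 (without BPS) or 17 (without BPA), at day 9 to 12 (without BPF), at day 20 to 13 (without BPF) and in NPC to 1 (without BPF) or 7 (without BPA). In RA EB it became 0 without BPF or BPS and 3 without BPA. The calls over all genes moved in the same direction in each of these fits, so the shifts are not particular to the members. Every value of EB days 12 and 20 rests on a DMSO library that stood apart, and no comparison without it can be made.

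**Figure D4:**
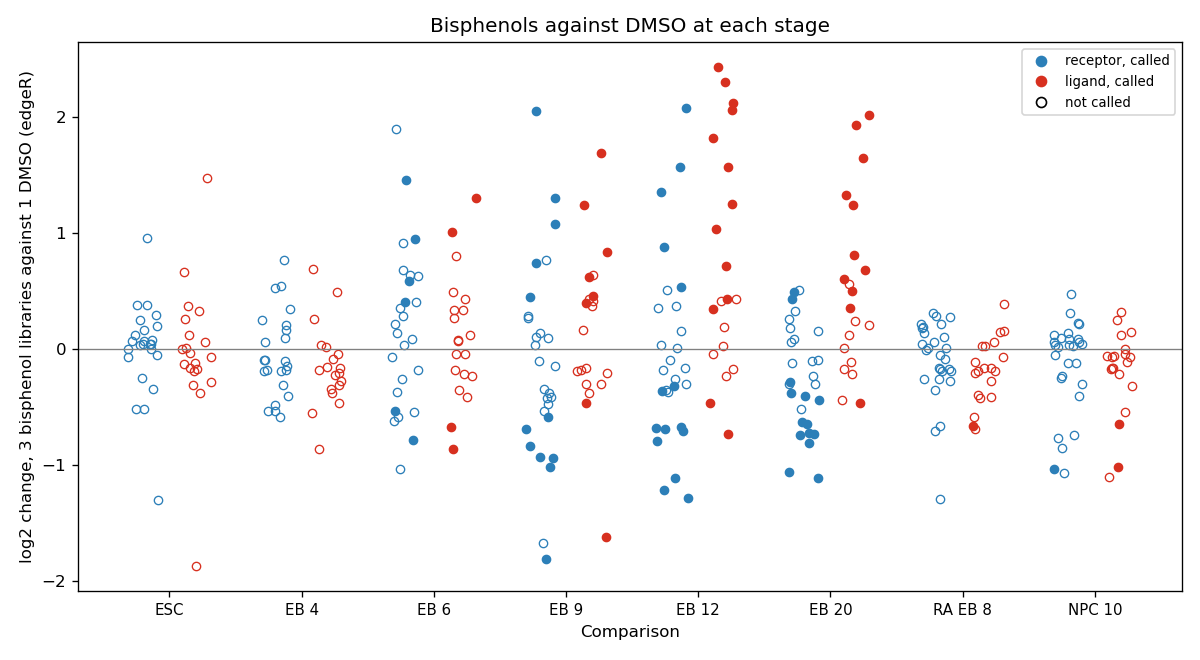
Fitted log2 difference of the 3 bisphenol libraries against the DMSO library at each stage, with receptors in blue, ligands in red, called members filled and others open; 12 values with a group at 0 counts are not drawn. At EB days 12 and 20 most filled red points lie above 0 (11 and 10 ligands called higher) and most filled blue points below (10 and 12 receptors called lower).

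The calls were also counted by role, and the difference between roles was not tested. At day 9, ligands split into 6 higher and 2 lower and receptors into 5 and 7. At day 12 the splits were 11 and 2 for ligands and 5 and 10 for receptors, and at day 20 they were 10 and 1 for ligands and 2 and 12 for receptors. Of all 15632 genes, 627 were higher and 544 lower at day 9, 1577 and 1374 at day 12, and 1428 and 1636 at day 20. The median log2 difference of ligands was 0.43 at days 12 and 20, that of receptors -0.22 and -0.29, and that of all genes -0.05 and -0.06. Over all stages 39 members were called at least once, 15 only higher (9 ligands, 6 receptors), 15 only lower (12 receptors, 3 ligands) and 9 in both directions. The share of all genes called at least once over the stages was not counted, so these counts cannot be read as particular to the members. Called lower at 3 stages were Dcc, Dscam, Epha8 and Ephb1, all receptors. Called higher at 3 stages were Ntn1, Slit2, Slit3, Sema3e, Efnb2 and Nrp2.

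Among the ligands, Ntn1 had 18.6 FPKM with DMSO and 76.5, 73.2 and 72.2 with bisphenols at EB day 20, and the DMSO library was lower than the others by a log2 difference of 1.93 ± 0.16 (adjusted p = 1.8e-09). At day 12 it had 52.7 with DMSO against at least 78.02. Slit2 had 9.36 FPKM with DMSO against 26.0, 23.5 and 19.2 at day 12, and 4.38 against 15.0, 14.5 and 13.5 at day 20 (1.25 ± 0.15 and 1.65 ± 0.16). Slit3 was higher with bisphenols at days 9, 12 and 20 (1.24 ± 0.17, 1.57 ± 0.19 and 1.33 ± 0.20). Efnb3 at day 20 had 73.6 against 130.0, 115.6 and 123.4 (0.68 ± 0.11). At EB day 12 the semaphorins Sema3a, Sema3c, Sema3d and Sema3e were all higher with bisphenols. Sema3e had 0.39 FPKM with DMSO and 1.85, 2.35 and 2.42 with bisphenols (2.43 ± 0.27, adjusted p = 4.8e-07), and Sema3c had 1.48 against 5.13, 5.57 and 5.42 (1.82 ± 0.22). Both had been called with other signs elsewhere: Sema3c was lower at EB day 6 (-0.86 ± 0.16) and in NPC (-0.64 ± 0.16), and Sema3e was lower in NPC (-1.01 ± 0.22). These calls were not kept in every alternative. Both of Sema3c were lost with limma on log2(FPKM + 0.1) (-0.85 and -0.64) and without BPF (-0.80 and -0.64). That of Sema3e was lost without BPF (-0.90) or BPS (-0.93).

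Among the receptors, Dcc was lower with bisphenols at EB day 9 (4.44 FPKM with DMSO against 2.63, 1.78 and 2.27; -1.01 ± 0.17), at day 12 (-0.69 ± 0.14) and at day 20 (-0.74 ± 0.15). In RA EB and NPC its DMSO library lay below the bisphenol mean, with 4.06 against 4.32, 5.16 and 4.84, and with 28.0 against 29.5, 27.3 and 29.9, and neither passed the test. Ephb1 had 25.9 FPKM with DMSO at EB day 20 and 18.0, 13.5 and 14.8 with bisphenols (-0.81 ± 0.15), and Robo1 had 44.0 against 29.3, 28.7 and 25.8 (-0.72 ± 0.14). Robo3 gave no count in the DMSO library of EB day 6 and 0.40, 0.96 and 0.93 FPKM with bisphenols, at least 13.1-fold higher with a floor of 3 counts, and was lower with bisphenols at day 12 (-1.11 ± 0.19). Epha7, an EphA receptor of the cortex, was lower with bisphenols at day 9, at 28.5 FPKM with DMSO against 16.8, 14.3 and 14.3 (-0.94 ± 0.13). Some receptors were higher with bisphenols, among them Epha1 and Unc5b at days 9 and 12, Robo2 at day 12 and both neuropilins. Nrp2 had 10.3 FPKM with DMSO and 29.1, 28.3 and 24.6 with bisphenols at EB day 12 (1.36 ± 0.13, adjusted p = 3.1e-08), and Nrp1 had 1.97 against 5.61, 9.09 and 11.2 (2.08 ± 0.47).

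The marker sums differed at the same stages. All 13 mesenchyme markers were lower in the DMSO library than in each bisphenol library at EB day 12 and 12 of 13 at day 20, where every one of them had counts in at least 1 library. At EB day 12 the 10 endothelium markers summed to 4.31 with DMSO and 16.4 to 34.2 with bisphenols, and the 10 cardiac muscle markers to 2.75 against 16.1 to 140.5. Neuron markers had the reverse order: 436.3 against 240.7 to 340.5 at day 9 (15 of 16 markers highest in DMSO), 1225 against 904.6 to 1099 at day 12 (13 of 16) and 2775 against 2148 to 2531 at day 20 (14 of 16). Neural progenitor markers were at 585.9 against 345.5 to 434.6 at day 9 (12 of 12) and at 1319 against 839.6 to 967.8 at day 12 (11 of 12). At day 20 their sum was lower in DMSO, at 391.2 against 417.2 to 475.5. Taken singly, 6 of the 12 markers were highest in DMSO at day 20 and 3 were lowest. At EB day 6 the sum of the mesenchyme markers had the opposite order to the later days, at 125.1 with DMSO against 58.78 to 76.59. Taken singly, the 13 markers were mixed there, with 4 highest in DMSO and 5 lowest. Neural progenitor markers at EB day 6 stood at 270.7 against 203.8 to 226.6 (9 of 12 highest in DMSO). The part of these marker lists in the members' differences was not tested.

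**Figure D5:**
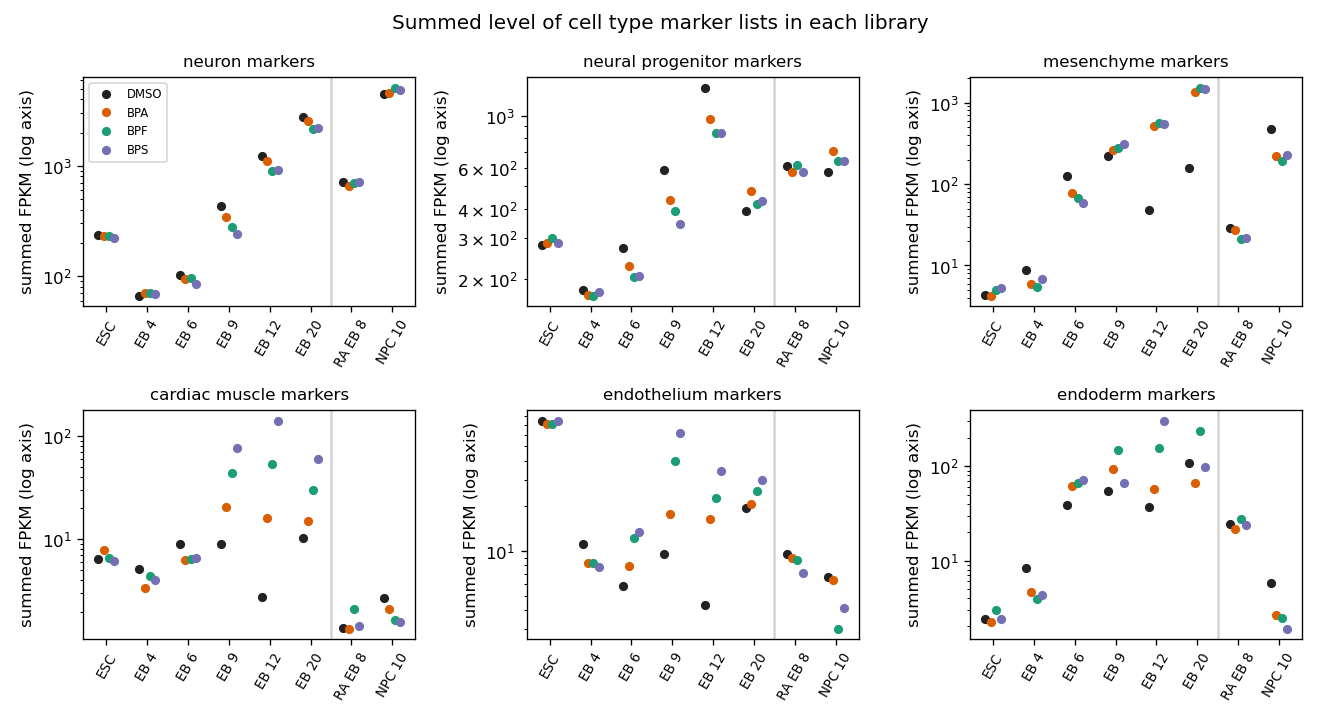
Summed FPKM of 6 lists of cell type markers in each library, on a log axis, with points coloured by treatment. The DMSO library lies below the bisphenol libraries for mesenchyme markers at EB days 12 and 20 (47.4 against at least 521.9, and 156.1 against at least 1362) and above them for neuron markers at EB days 9, 12 and 20.

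Difference between branches. The mean bisphenol effect in RA EB and NPC was tested against that in EB days 6, 9, 12 and 20. It differed for 23 of 48 members (16.5% of all genes in either direction), 7 with a higher value in the neural branch and 16 with a lower one. Ligands made up 11 of these, 1 higher and 10 lower, and receptors 12, with 6 in each direction. The neural effect exceeded the global one for Dcc (0.93 ± 0.16, adjusted p = 0.00016), Ephb1 (0.79 ± 0.18), Epha7 (0.55 ± 0.13), Epha4 (0.45 ± 0.11) and, among others, Draxin (0.62 ± 0.17). The call of Draxin was lost in both limma fits (adjusted p = 0.086 and 0.12) and without BPF or BPS (0.060 and 0.059), that of Epha4 without BPF (0.057) and that of Epha7 with limma on log2(FPKM + 0.1) (0.058). It lay below the global effect for Slit2 (-1.20 ± 0.12, adjusted p = 1.5e-07), Slit3 (-1.39 ± 0.16), Sema3e (-1.42 ± 0.21), Sema3d (-1.54 ± 0.26) and Sema3a (-1.04 ± 0.18). Slit2 in RA EB had 6.83 FPKM with DMSO and 5.91, 6.57 and 5.28 with bisphenols, and in NPC 14.7 against 13.6, 14.3 and 14.0, so the neural libraries lay within a narrow range where those of EB days 12 and 20 did not. Mesenchyme markers were higher in the DMSO library of NPC (13 of 13 markers), opposite to EB days 12 and 20. Of the 12 neural progenitor markers, 10 were lowest and 1 highest in the DMSO library of NPC. Of the 16 neuron markers, 9 were lowest and 2 highest there. In RA EB both of these lists were mixed. The part of the 3 marker lists in this difference was not tested. In NPC the 3 called members were Epha2 (6.39 against 3.49, 2.20 and 3.70 FPKM; -1.03 ± 0.19), Sema3e and Sema3c, and in RA EB Sema3f had 5.23 against 3.45, 2.94 and 3.12 FPKM (-0.66 ± 0.14).

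Other genes of the pathway. A further 3 lists were counted in the same fits: 20 other semaphorins and plexins, 26 adhesion and other guidance receptors and 40 intracellular effectors. From RA EB to NPC, 12, 15 and 21 of them rose and 1, 4 and 1 fell (18.1% and 17.4% of all genes). Examples were the adhesion molecules Chl1 (log2 change 6.37 ± 0.25) and L1cam (3.39 ± 0.13), which line growing axons, and the growth cone proteins Crmp1 (3.27 ± 0.15) and Gap43 (3.01 ± 0.15). From EB day 4 to RA EB, 7, 19 and 12 rose and 5, 2 and 2 fell (19.0% and 15.7% of all genes). From EB day 4 to day 6 the risers were 5, 15 and 6 (10.8% of all genes). With bisphenols over all stages, 0, 3 and 5 of these genes were lower and none was higher (2.73% of all genes in either direction). The lower genes were Dscaml1 (-0.69 ± 0.14), Gas1 and Flrt1, and the effectors Dpysl4 (-0.46 ± 0.08), Crmp1, Dpysl3, Dpysl2 and Pak1. At EB day 20 none of the 40 effectors was higher with bisphenols and 11 were lower, against 1428 higher and 1636 lower of 15632 genes, and this stage rests on the DMSO library that stood apart. The chemokine Cxcl12, a ligand outside the 4 classical families, was higher with bisphenols at EB day 12 (2.79 ± 0.26) and day 20 (2.50 ± 0.27) and lower in NPC (-0.94 ± 0.22). In the test between branches, 12 of 40 effectors had a higher bisphenol effect in the neural branch and 2 a lower one (16.5% of all genes in either direction).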

How the data were processed

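RNA was extracted with Trizol and RNeasy Plus columns and libraries were made and sequenced at BGI, per the labels' protocols. Bowtie2, HISAT, RSEM and the mm10 build are listed, per the submitters' processing notes, without roles or versions, and strand-specific counting is not given in the sources used here. The authors deposited, per gene and library, expected counts (RSEM's estimated counts, not normalized), FPKM values and a gene length, per the file headers. Genes under 0.01 FPKM were unlisted and taken as 0.

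Expected counts were rounded (78.8% to 80.6% were whole already) and tested with edgeR 4.0.16 quasi-likelihood in R 4.3.3, with TMM factors, for 15632 genes with at least 1 CPM in at least 4 libraries. Stage and treatment were additive terms (21 residual degrees of freedom). Single stages and the branch difference used stage by treatment class (DMSO or bisphenol, 16 degrees of freedom). P-values were adjusted by Benjamini-Hochberg over all genes tested. Alternatives were DESeq2 1.42.0, limma 3.58.1 on log2(FPKM + 1) and log2(FPKM + 0.1) with a mean of at least 0.5 FPKM, other filters, no treatment term and libraries left out. Leaving out EB days 12 and 20, or RA EB and NPC, was chosen after seeing the data.

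Named genes were, per stage comparison, called members with the 5 largest rises and 5 largest falls and a mean of at least 1 FPKM in the higher group. Per bisphenol comparison they were up to 6 called members each way with the smallest p, or the 3 with the smallest p where fewer than 3 were called. The member with the highest mean FPKM of each family at EB day 20 and in NPC was added, and up to 3 called genes each way from the other lists. Further members were named after their values were seen. The members and all lists were chosen with earlier results of these data known. Tested on simulated counts for NPC against RA EB (15437 genes), the fit found 89.5% of 200 altered genes (log2 change 2) and called 2 unaltered ones. For bisphenols over stages (15509 genes, log2 change 1) it found 91% and called 16 unaltered genes, and for bisphenols at EB day 12 (15504 genes, log2 change 2) 79.5% and 11. The simulated libraries of a stage all varied alike, so these counts do not cover a DMSO library that stands apart, as at EB day 12. Intervals on count ratios cover counting error only.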

Additional observations from a re-analysis of the deposited data

Results flagged for a closer look

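In 20 of 303 sets of 4 libraries (a member at a stage, mean of at least 1 FPKM), 1 library lay apart from the other 3 by Dixon's test, where chance gives about 1 in 20. It was the DMSO library in 14 of them. At EB day 20 the DMSO library stood apart for Ntn1 (18.63 FPKM, the others 72.18 to 76.47), Slit2 (4.38, others 13.48 to 14.99), Dscam (19.17, others 11.54 to 12.83), Epha8 (6.7, others 2.95 to 3.52), Efnb1 (27.06, others 35.96 to 36.42) and Sema3a (0.63, others 1.44 to 1.59). At EB day 12 it did so for Robo3 (7.45, others 3.29 to 3.83), Plxna1 (36.41, others 29.06 to 29.5), Ntn4 (10.28, others 8.95 to 9.09) and Sema3c (1.48, others 5.13 to 5.57). At EB day 9 these were Nrp2 (12.1, others 19.95 to 21.24) and Sema3e (2.31, others 4.04 to 4.34), at EB day 6 Ephb3 (12.72, others 16.9 to 17.21) and in RA EB Efna3 (6.37, others 3.88 to 4.25). Bisphenol libraries stood apart for Epha4 in ESC (BPS, 18.62), Ephb6 and Efna4 at EB day 6 (BPF, 3.02 and 13.99), Unc5a at EB day 9 (BPA, 1.5), and Robo1 (BPS, 22.06) and Robo3 (BPF, 6.4) in RA EB.

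The bisphenol effect differed between the neural and the global branch for 23 members in edgeR's test of the difference (log2, neural minus global). It was higher in the neural branch for Dcc (0.93), Ephb1 (0.79), Draxin (0.62), Epha7 (0.55), Unc5a (0.55), Epha4 (0.45) and Plxna1 (0.3). It was lower for the receptors Nrp1 (-1.78), Epha1 (-1.32), Unc5b (-1.16), Ephb4 (-0.57), Nrp2 (-0.47) and Ephb3 (-0.39). Among ligands it was lower for Efna1 (-1.75), Sema3d (-1.54), Sema3e (-1.42), Slit3 (-1.39), Slit2 (-1.2), Sema3a (-1.04), Sema3c (-0.85), Efnb2 (-0.71), Sema3f (-0.66) and Ntn1 (-0.57). Mesenchyme markers differed in the same test (13 of 13 lower in the neural branch), and their part in these differences was not tested.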

How the results depend on the processing

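Of the named genes' values under the alternatives, 1541 kept their side of the threshold, 110 lost the threshold and 13 gained it. Of values called in either fit, 0 reversed. Values called in neither fit count among the 1541 even where their sign changed. Counts of called members moved by over 1.5 times in these cases, and the cause was not tested. With limma on log2(FPKM + 1), members higher and lower at EB day 4 numbered 8 and 4, higher at day 9 11, higher and lower at day 12 5 and 1, higher in NPC against RA EB 18 and lower in RA EB against EB days 6 and 9 7. The matching counts over all genes fell too. With either limma fit, 0 members were lower at EB day 6, 0 were called for all bisphenols, BPF or BPS over stages, and 2 in RA EB. With limma on log2(FPKM + 0.1), 7 were called at EB day 6 and 12 at day 20. Without a filter, 2 were lower at EB day 9. A filter of 5 CPM gave 1 for BPF, 0 for BPS and 1 at EB day 4, and DESeq2 gave 1 for BPF and 1 at EB day 4. Without EB days 12 and 20, all bisphenols called 1 member, BPF 0 and BPS 0. Without RA EB and NPC, they called 20, BPA 5, BPF 16 and BPS 13. Leaving out a treatment or stage in turn gave 1 to 2 members lower at EB day 6, 1 to 2 at day 9 and 1 to 3 at day 12, and 0 to 16 called for all bisphenols, 0 to 9 for BPF and 0 to 8 for BPS. At single stages, leaving out a bisphenol library gave 4 to 17 called at EB day 6, 12 to 23 at day 9, 13 to 32 at day 20, 0 to 3 in RA EB and 1 to 7 in NPC. Where these counts moved, the calls over all genes moved in the same direction. The single DMSO library of a stage cannot be left out. Members under 1 FPKM, among them Epha6, Unc5d in early stages and Dscam in RA EB, rest on few counts.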

Other observations

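The deposited length of Epha7, which averages over its 3 listed transcripts, was 6583.5 ± 29.2 bases (SD, n = 4) at EB day 12, 5945.7 ± 58.6 at EB day 20 and 6157.3 ± 81.2 in NPC. The ratio of its longest to its shortest stage mean was 1.134, and the next member, Nrp2, had 1.041. FPKM values of Epha7 are scaled by this length, and the test on counts is not.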
